A study of Mus musculus with 12 samples.

Results

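The genes described here are 36 mouse genes of MHC class I antigen presentation and cross-presentation, followed across 12 RNA-seq libraries of splenic dendritic cells. They were taken by name from a list of the pathway and not by their values. The list was chosen with earlier results of these data known. All 36 were among the 27179 genes counted, and all 36 reached 1 CPM (counts scaled to a common library total) in at least 3 libraries, as 12395 genes did. The list holds 9 heavy chains, the light chain B2m, 4 genes of peptide transport and tapasin function, 4 endoplasmic reticulum (ER) chaperones and trimming enzymes, 6 catalytic subunits of the proteasome, the 2 subunits of its PA28 activator, the transactivator Nlrc5, and 9 genes tied to cross-presentation. Of the 36 genes, 15 lie on chromosome 17.

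The study sorted 2 subsets of conventional dendritic cells from spleen, type 1 (cDC1) and type 2 (cDC2), from female C57/BL6 mice. Mice labelled zfp366+/+ (WT) were compared with mice labelled zfp366-/- (KO). The protein made from Zfp366 is DC-SCRIPT, which carries zinc fingers and is known from dendritic cells. Each of the 4 groups had 3 libraries. The labels say that cells came fresh from spleens treated with collagenase and DNAse, and from pools of mice. Each genotype had 3 pools, each pool gave 1 cDC1 and 1 cDC2 library, and the pool is the replicate, with n = 3 for every group. The labels name no treatment and give no age, and how the zfp366-/- allele was made and in which cells it acts is not given in the sources used here.

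Class I molecules show peptides from inside the cell to CD8+ T cells. Proteasomes cut proteins into peptides, the TAP transporter carries these into the ER, and a loading complex of tapasin, calreticulin and ERp57 fits them into a heavy chain bound to beta-2-microglobulin. In cross-presentation, dendritic cells place peptides from engulfed material on class I molecules, a task for which cDC1 are known.

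Promoters of heavy chains are textbook sites of NF-kappa B, interferon and NLRC5-dependent control, so the sequence before the start was searched in the 30 members matched by symbol to a RefSeq (GRCm38.p6) window, which leaves H2-T24, Tap2, Tapbpl, Psmb7, Nlrc5 and Sec61a1 unmatched. The window ran from 250 bases before to 50 bases after the start, the first one listed was taken, and both strands were read. The interferon-type element GAANNGAAA was found in 26.7% of the members' windows and in 7.56% of all 27025 windows. The kappa B type element GGGATTCCC stood in 4 members (13.3% against 0.37% of all windows), namely H2-K1, H2-D1, H2-Q6 and H2-Q7. The X2-type box TGACGC was found in 26.7% against 7.5% (12.8% of the windows of genes tested), the Y-type box CCAAT in 63.3% against 37.9% (39.8% of those tested), and the GAS-type element TTCNNNGAA in 13.3% against 8.47%. Near-identical heavy-chain promoters share their matches, so these shares do not count independent cases.

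The sequences below show a classical and another heavy chain, the stretch that Tap1 shares with its neighbour Psmb9, Pdia3, which had the largest subset difference in WT, and Rab11a, the member that was lower in KO cDC1. Capitals mark matches to the 5 motifs, on either strand. Each is written 5′ to 3′ on the strand of its gene.
H2-D1: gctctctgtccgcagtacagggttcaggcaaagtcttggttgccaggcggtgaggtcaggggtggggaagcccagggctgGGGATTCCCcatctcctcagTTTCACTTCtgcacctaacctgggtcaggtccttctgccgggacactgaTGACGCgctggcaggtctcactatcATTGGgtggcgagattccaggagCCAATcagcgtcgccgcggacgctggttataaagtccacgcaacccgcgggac
H2-Q6: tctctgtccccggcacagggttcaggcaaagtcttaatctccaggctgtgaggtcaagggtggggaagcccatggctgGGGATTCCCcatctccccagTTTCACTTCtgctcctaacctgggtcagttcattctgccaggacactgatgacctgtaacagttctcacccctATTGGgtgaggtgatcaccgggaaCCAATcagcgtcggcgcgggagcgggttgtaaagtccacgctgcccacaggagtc
Psmb9 to Tap1: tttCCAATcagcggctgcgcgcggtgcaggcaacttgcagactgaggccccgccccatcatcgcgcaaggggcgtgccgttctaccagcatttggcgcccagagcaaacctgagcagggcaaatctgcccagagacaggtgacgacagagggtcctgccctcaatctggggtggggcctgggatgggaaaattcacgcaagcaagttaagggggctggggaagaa
Pdia3: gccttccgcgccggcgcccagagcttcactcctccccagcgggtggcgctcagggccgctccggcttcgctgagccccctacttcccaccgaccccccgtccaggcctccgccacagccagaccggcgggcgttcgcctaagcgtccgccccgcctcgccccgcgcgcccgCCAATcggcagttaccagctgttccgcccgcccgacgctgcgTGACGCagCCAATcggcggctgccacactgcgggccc
Rab11a: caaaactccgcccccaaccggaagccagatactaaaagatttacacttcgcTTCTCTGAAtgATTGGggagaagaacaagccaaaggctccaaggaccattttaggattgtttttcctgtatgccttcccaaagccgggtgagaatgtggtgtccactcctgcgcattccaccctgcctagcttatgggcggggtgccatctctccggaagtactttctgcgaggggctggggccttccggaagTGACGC
The H2-D1 stretch is chr17:35262844-35263093 (plus strand) and the H2-Q6 stretch is chr17:35424600-35424849 (plus strand). Both carry the kappa B type element, then the interferon-type element read on the other strand as TTTCACTTC, then 2 Y-type boxes, and H2-D1 also has the X2-type box, 101 bases before its start. The stretch of 225 bases between the starts of Psmb9 and Tap1 is chr17:34187331-34187555, written on the strand of Tap1. It held 1 Y-type box and none of the other motifs in these letters. The Pdia3 stretch is chr2:121413652-121413901 (plus strand), with 2 Y-type boxes and an X2-type box. The Rab11a stretch is chr9:64737757-64738006 (minus strand), with a GAS-type element, a Y-type box and an X2-type box. A match describes the letters and is not a binding site.

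Total counts per library ran from 11330503 to 36761685. The libraries labelled cDC1 WT were higher than cDC2 WT in 8 of 8 cDC1 markers and lower in 8 of 8 cDC2 markers. Zfp366 was at 152, 89.2 and 67.5 CPM in cDC1 WT and at 48.8, 48.4 and 45.4 CPM in cDC1 KO, groups that did not overlap. In cDC2 it was at 52.6, 62.4 and 57.4 CPM in WT and at 55.0, 80.6 and 65.1 CPM in the libraries labelled KO. Counts per gene do not show which exons were read, so the level in cDC2 does not check that label, and KO there means the label. Summed over their lists, markers of T cells reached at most 7.1 CPM and of NK cells at most 4.9 CPM, while those of B cells were at 239 to 371 CPM, of macrophages at 128 to 527 CPM and of monocytes at 91.2 to 717 CPM. In cDC1 WT, replicate 1 stood apart from replicates 2 and 3, with levels that went with gene length the other way: across 13415 genes, the length of a gene and its level relative to the other libraries had a Spearman correlation of 0.45 against -0.24 and -0.34. In the cDC1 KO libraries it was 0.30 to 0.41. The cDC2 KO libraries split in the same way, at 0.21 in replicate 1 against -0.23 and -0.20. In cDC2 WT it was -0.33 in replicate 1 against -0.09 and -0.10. Gene length moved with genotype in cDC1: its Spearman correlation with the KO change over all genes was 0.32 with all libraries and 0.45 within replicates 2 and 3. For the KO change in cDC2 the correlation was 0.19 and -0.15 in the same order. For the difference between the KO subsets it was 0.30 with all libraries. Results below are given with all libraries, and part of them also without replicate 1. Fits within replicates 2 and 3 hold only 2 libraries per group, so their SE and adjusted p leave out the spread that replicate 1 adds. In these bulk samples fewer cells of a type and less RNA per cell cannot be told apart.

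Members made up 2.25% to 2.39% of the counts in cDC1 WT, 1.95% to 2.03% in cDC1 KO, 1.43% to 1.61% for WT cDC2 and 1.19% to 1.84% for KO cDC2. Per kilobase of gene length (RPKM, the CPM divided by the gene's length), B2m stood highest in every group, at 3712 ± 390 RPKM (mean ± SD, n = 3, as for every ± here) in cDC1 WT and 4229 ± 533 RPKM in cDC2 WT. H2-D1 followed among heavy chains at 1537 ± 238 and 1203 ± 69.7 RPKM, a difference from H2-K1 at 1320 ± 82 and 1066 ± 84.97 RPKM that is within their spread. H2-T24, a gene of the T region, was the lowest heavy chain at 4.74 ± 1.41 and 7.76 ± 3.48 RPKM, and Nlrc5, a transcriptional regulator, was as low at 7.30 ± 6.70 and 3.88 ± 2.65 RPKM. H2-K1 and H2-D1 together made up 70.0% ± 2.06 of the heavy-chain RPKM in cDC1 WT and 69.2% ± 1.66 in cDC2 WT.

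**Figure D1:**
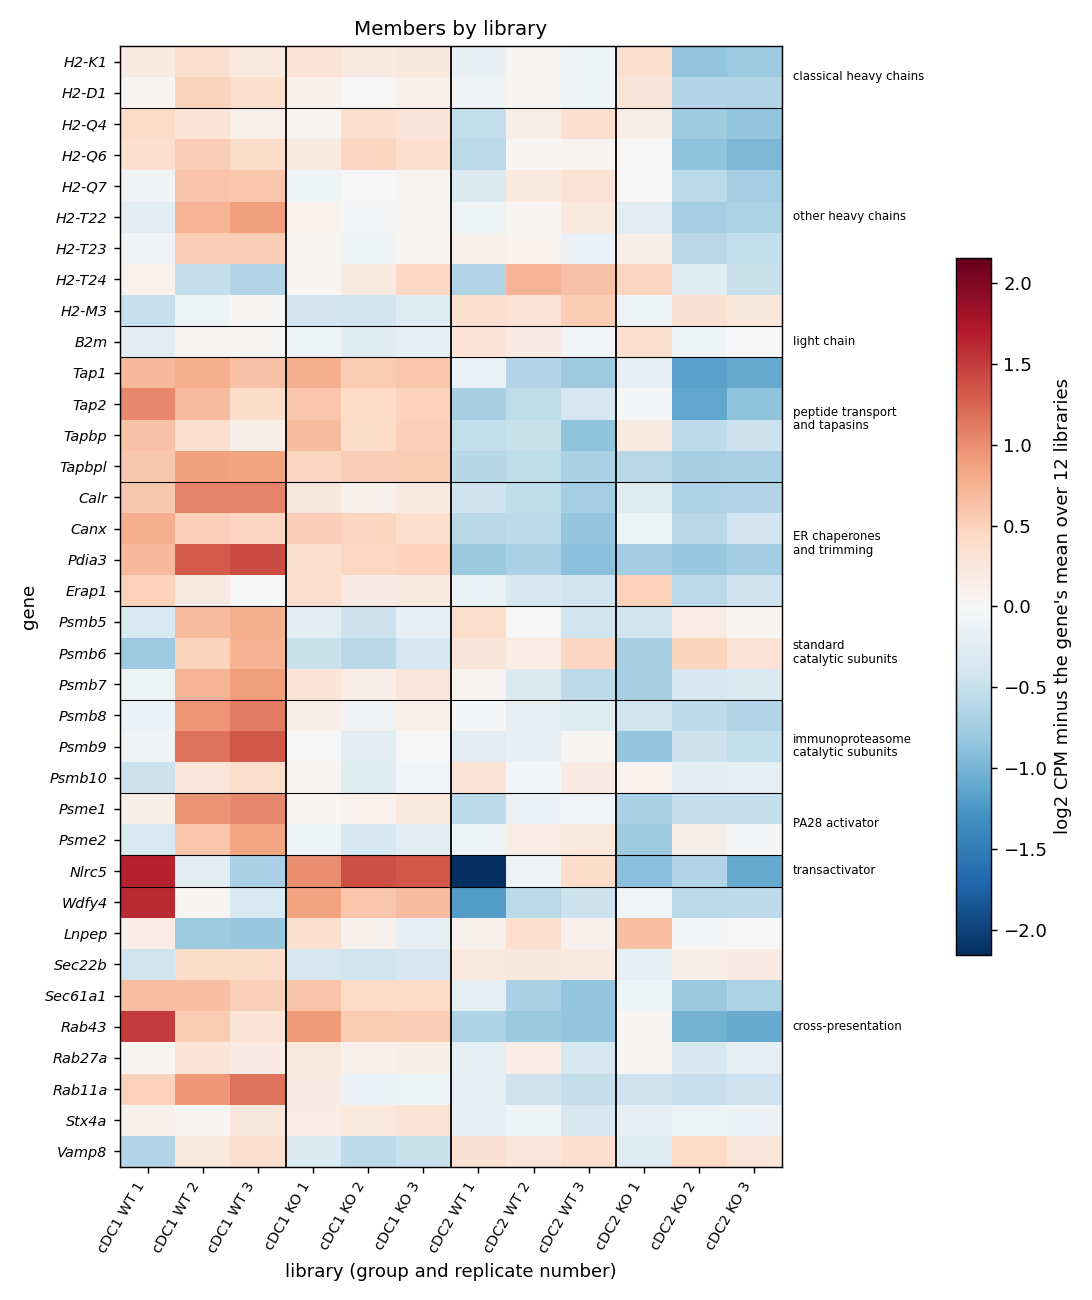
Each row is 1 of the 36 genes and each column 1 of the 12 libraries. Colour gives the log2 CPM minus that gene's mean over the libraries, with red above and blue below. Tap1, Tap2, Tapbp, Tapbpl, Calr, Canx and Pdia3 are red in all 6 cDC1 libraries, and the 8 proteasome genes are redder in cDC1 WT replicates 2 and 3 than in replicate 1.

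The first comparison asked how cDC1 differ from cDC2 in this pathway in WT mice. Of the 36 members 15 were higher in WT cDC1 and none was lower, against 10.4% of all genes higher and 10.9% lower, by edgeR's quasi-likelihood test with Benjamini-Hochberg adjustment over 13415 genes. The median log2 fold change of the members was 0.52, against 0.02 over all genes. All 4 genes of peptide transport and tapasin function, 3 of the 4 ER genes, 4 of the 8 proteasome genes and 4 of the 9 cross-presentation genes passed, and none of the 10 heavy and light chains did. Within replicates 2 and 3, heavy chains passed too: H2-D1, H2-Q6, H2-Q7, H2-T22 and H2-T23 were higher in cDC1 and H2-M3 and H2-T24 lower, where 23.2% of all genes were higher and 24.3% lower. Erap1 (0.50), Psmb5 (0.93), Psme2 (0.55) and Stx4a (0.37) also passed there as higher, and Lnpep (-1.03) and Nlrc5 (-0.61) as lower. Libraries did not overlap for 16 members higher in cDC1 (16.5% of all genes) and for 1 lower, H2-M3 (16.2% of all genes).

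Tap1 and Tap2 together form the peptide transporter. In the cDC1 libraries Tap1 stood at 665, 707 and 640 CPM in WT and 709, 600 and 624 CPM in KO. The cDC2 libraries held 373, 265 and 239 CPM in WT and 363, 182 and 192 CPM in KO. Every cDC1 library lay above every cDC2 library, in both genotypes. The log2 fold change of Tap1 was 1.20 (SE 0.28, adjusted p = 0.00835) in WT and 1.39 (SE 0.28, adjusted p = 0.00499) in KO.

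Tap2 had 263, 207 and 170 CPM in WT cDC1, against 78.01, 87.8 and 99.6 CPM in WT cDC2. KO mice gave 194, 174 and 181 CPM in cDC1 and 125, 58.7 and 70.4 CPM in cDC2. Again the subsets did not overlap within either genotype, and the difference was 1.27 (SE 0.28, adjusted p = 0.00548) in WT and 1.11 (SE 0.28, adjusted p = 0.016) in KO. Tapbp encodes tapasin, which holds empty class I molecules at the transporter. Tapbp averaged 474 ± 83.3 CPM in cDC1 WT, 528 ± 53.1 in cDC1 KO, 238 ± 33.97 in cDC2 WT and 309 ± 94.3 in cDC2 KO. Its difference was 1.00 (SE 0.25, adjusted p = 0.0112) in WT and 0.77 (SE 0.24, adjusted p = 0.048) in KO. Tapbpl encodes TAPBPR, a peptide editor related to tapasin. Tapbpl was at 104, 129 and 127 CPM in cDC1 WT and at 45.5, 48.02 and 42.9 CPM in cDC2 WT. In KO it was at 96.7, 101 and 102 CPM in cDC1 and at 46.4, 42.4 and 43.2 CPM in cDC2. The spread within its groups was small, and the difference was 1.40 (SE 0.17, adjusted p = 7.1e-05) in WT and 1.19 (SE 0.17, adjusted p = 0.000406) in KO.

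Pdia3 encodes ERp57, the disulfide isomerase of the loading complex. In the cDC1 libraries Pdia3 stood at 1623, 2514 and 2663 CPM in WT and 1271, 1360 and 1414 CPM in KO. The cDC2 libraries held 579, 620 and 537 CPM in WT and 599, 567 and 596 CPM in KO. The lowest cDC1 WT library was still above the highest cDC2 library. Pdia3 had the largest difference of any member in WT, 1.97 (SE 0.23, adjusted p = 5.3e-05), and was also higher in KO cDC1, by 1.20 (SE 0.23, adjusted p = 0.00299).

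Calr encodes calreticulin, a lectin chaperone of the loading complex. Calr had 1096, 1531 and 1540 CPM in WT cDC1, against 540, 501 and 443 CPM in WT cDC2. KO mice gave 870, 785 and 841 CPM in cDC1 and 613, 464 and 472 CPM in cDC2. The cDC1 libraries were the higher ones in each genotype, by 1.49 (SE 0.22, adjusted p = 0.000343) in WT and 0.69 (SE 0.22, adjusted p = 0.0462) in KO. Canx encodes calnexin, the membrane-bound relative of calreticulin that takes up new heavy chains. Canx was at 601, 494 and 482 CPM in cDC1 WT and at 231, 234 and 194 CPM in cDC2 WT. In KO it was at 504, 479 and 449 CPM in cDC1 and at 322, 230 and 262 CPM in cDC2. Canx differed by 1.26 (SE 0.20, adjusted p = 0.000624) in WT and 0.82 (SE 0.20, adjusted p = 0.0143) in KO. Erap1, which trims peptides in the ER, did not pass. Erap1 averaged 192 ± 33.3 CPM in cDC1 WT, 194 ± 14.8 in cDC1 KO, 132 ± 13.7 in cDC2 WT and 152 ± 66.3 in cDC2 KO. Its WT libraries did not overlap between the subsets, with a difference of 0.55 (SE 0.27, adjusted p = 0.179).

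With all libraries the heavy and light chains showed no call between the WT subsets, with a median of 0.31. H2-K1 and H2-D1 encode the classical heavy chains K and D. In the cDC1 libraries H2-K1 stood at 2107, 2328 and 2084 CPM in WT and 2242, 2098 and 2170 CPM in KO. The cDC2 libraries held 1636, 1909 and 1720 CPM in WT and 2336, 1034 and 1060 CPM in KO. The WT libraries did not overlap between the subsets, but the difference was 0.31 (SE 0.29, adjusted p = 0.512). H2-D1 had 2208, 3004 and 2794 CPM in WT cDC1, against 2034, 2227 and 2005 CPM in WT cDC2. KO mice gave 2281, 2169 and 2322 CPM in cDC1 and 2604, 1384 and 1363 CPM in cDC2. These WT groups overlapped, with a difference of 0.35 (SE 0.27, adjusted p = 0.398). B2m was at 2803, 3429 and 3321 CPM in cDC1 WT and at 4029, 3726 and 3131 CPM in cDC2 WT. In KO it was at 3050, 2736 and 2906 CPM in cDC1 and at 4187, 3074 and 3289 CPM in cDC2. B2m encodes beta-2-microglobulin, the light chain, and its WT groups overlapped, with a log2 fold change of -0.19 (SE 0.22, adjusted p = 0.6).

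The other heavy chains include Qa-2 chains (H2-Q6 and H2-Q7), Qa-1 (H2-T23), which NK receptors read, a ligand of gamma delta T cells (H2-T22) and the presenter of formylated peptides H2-M3. H2-Q4 averaged 215 ± 21.5 CPM in cDC1 WT, 208 ± 21.5 in cDC1 KO, 183 ± 53.9 in cDC2 WT and 133 ± 54.5 in cDC2 KO. H2-Q6 averaged 208 ± 12.7 CPM in cDC1 WT, 195 ± 17.8 in cDC1 KO, 141 ± 32.7 in cDC2 WT and 106 ± 41.9 in cDC2 KO. H2-Q7 averaged 316 ± 78.2 CPM in cDC1 WT, 237 ± 13.1 in cDC1 KO, 253 ± 54.5 in cDC2 WT and 180 ± 51.1 in cDC2 KO. None of these 3 passed between the WT subsets, at 0.24 (SE 0.29), 0.56 (SE 0.27) and 0.32 (SE 0.26). H2-Q6 had no overlap between the WT subsets, and in KO it was higher in cDC1 by 0.89 (SE 0.27, adjusted p = 0.0408). H2-T22 averaged 204 ± 74.8 CPM in cDC1 WT, 142 ± 6.26 in cDC1 KO, 145 ± 16.9 in cDC2 WT and 96.6 ± 19.8 in cDC2 KO. H2-T23 averaged 658 ± 146 CPM in cDC1 WT, 513 ± 24.8 in cDC1 KO, 525 ± 45.7 in cDC2 WT and 419 ± 124 in cDC2 KO. H2-T24 averaged 10.3 ± 3.07 CPM in cDC1 WT, 15.4 ± 2.32 in cDC1 KO, 16.9 ± 7.59 in cDC2 WT and 12.8 ± 4.81 in cDC2 KO. None of the H2-T genes passed between the WT subsets, at 0.49 (SE 0.27), 0.33 (SE 0.25) and -0.71 (SE 0.38). H2-M3 averaged 108 ± 19.5 CPM in cDC1 WT, 93.3 ± 5.67 in cDC1 KO, 160 ± 14.1 in cDC2 WT and 137 ± 21.1 in cDC2 KO. H2-M3 alone had its WT cDC1 libraries all below the cDC2 libraries, at -0.57 (SE 0.20, adjusted p = 0.059). Words of 50 bases from the transcripts of H2-T22, H2-Q4, H2-Q6 and H2-Q7 recur in other genes for 53.5%, 36.4%, 35% and 26.5% of their length, so reads may have been split or dropped among these paralogs and their levels are uncertain. The same holds for Psmb5 (54.1%, mostly Gm3375), Rab43 (74.5%, Gm45140) and Psme2 (28.3%, Psme2b). Strand use in counting is not given in the sources used here, so reads of B2m and Patl2, of H2-T22, H2-T23 and H2-T24 with A930015D03Rik, and of Wdfy4 with Lrrc18, which overlap, may not be separable.

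Proteasomes carry standard catalytic subunits, which the immunoproteasome of immune cells replaces with others: Psmb8 for Psmb5, Psmb9 for Psmb6 and Psmb10 for Psmb7. In WT cDC1, 4 of the 8 proteasome members were higher than in cDC2. In the cDC1 libraries Psmb8 stood at 755, 1608 and 1798 CPM in WT and 916, 789 and 898 CPM in KO. The cDC2 libraries held 813, 721 and 688 CPM in WT and 615, 558 and 531 CPM in KO. Replicates 2 and 3 of cDC1 WT were well above replicate 1, which lay within the range of the cDC2 WT libraries. Psmb8 passed at 0.90 (SE 0.28, adjusted p = 0.0381), and Psmb9 at 1.05 (SE 0.31, adjusted p = 0.0272). Psmb5 had 69.2, 140 and 149 CPM in WT cDC1, against 113, 87.9 and 64.1 CPM in WT cDC2. KO mice gave 74.1, 62.8 and 77.2 CPM in cDC1 and 64.2, 96.9 and 89.8 CPM in cDC2. Psmb5 showed the same split of cDC1 WT replicate 1 from the others and did not pass, at 0.43 (SE 0.30, adjusted p = 0.346). Psmb9 averaged 871 ± 385 CPM in cDC1 WT, 434 ± 39.3 in cDC1 KO, 420 ± 44.3 in cDC2 WT and 301 ± 39.9 in cDC2 KO. Psmb10 averaged 165 ± 46.98 CPM in cDC1 WT, 145 ± 15.3 in cDC1 KO, 171 ± 20.9 in cDC2 WT and 141 ± 17.8 in cDC2 KO. Psmb10 was level between the WT subsets, at -0.06 (SE 0.23). Psmb6 averaged 199 ± 93 CPM in cDC1 WT, 117 ± 9.83 in cDC1 KO, 201 ± 21.5 in cDC2 WT and 176 ± 67.9 in cDC2 KO. Psmb7 averaged 294 ± 98.1 CPM in cDC1 WT, 232 ± 12.7 in cDC1 KO, 167 ± 37.3 in cDC2 WT and 144 ± 20.7 in cDC2 KO. Psmb7 passed in WT, at 0.82 (SE 0.27, adjusted p = 0.0447), and Psmb6 did not, at -0.01 (SE 0.36). Psme1 and Psme2 encode the subunits of PA28, a cap that opens the proteasome. Psme1 averaged 831 ± 252 CPM in cDC1 WT, 527 ± 36.9 in cDC1 KO, 415 ± 75.2 in cDC2 WT and 328 ± 24.4 in cDC2 KO. Psme2 averaged 300 ± 114 CPM in cDC1 WT, 186 ± 17.3 in cDC1 KO, 235 ± 28.2 in cDC2 WT and 194 ± 58.1 in cDC2 KO. Psme1 was higher in WT cDC1 by 1.00 (SE 0.25, adjusted p = 0.0122), and Psme2 had 0.35 (SE 0.30). The calls of Psmb7, Psmb8 and Psmb9 ended when mouse pools were entered as a block, and without cDC1 WT replicate 2 or 3 (adjusted p = 0.14 and 0.148, 0.132 and 0.137, 0.101 and 0.104). Psmb9 was also lost without cDC2 WT replicate 1 or 2 (0.0689 and 0.0838), and Psme1 without cDC1 WT replicate 2 (0.0545). Psmb7 and Psmb8 were lost without cDC2 WT replicate 2 or 3 too (0.127 and 0.144, 0.106 and 0.106), without any 1 cDC1 KO library (0.0557 to 0.0678) and without cDC2 KO replicate 2 or 3 (0.0532 to 0.0624), and Psmb8 without cDC2 WT replicate 1 (0.0533).

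Nlrc5 encodes the transactivator of class I genes. Nlrc5 was at 104, 27.8 and 20 CPM in cDC1 WT and at 6.94, 30.8 and 43.2 CPM in cDC2 WT. In KO it was at 65.8, 86.3 and 83.4 CPM in cDC1 and at 17.3, 20.5 and 15.1 CPM in cDC2. Nlrc5 was high in cDC1 WT replicate 1 and low in replicates 2 and 3, and low in cDC2 WT replicate 1 and higher in the others. The WT difference did not pass, at 0.92 (SE 0.62, adjusted p = 0.334), and in KO, where the groups did not overlap, Nlrc5 was higher in cDC1 by 2.15 (SE 0.64, adjusted p = 0.0373). That call ended without any 1 of the 6 KO libraries (adjusted p from 0.0695 to 0.131) and without cDC2 WT replicate 2 (0.0513).

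Of the 9 cross-presentation genes 4 were higher in WT cDC1. Wdfy4 is required by cDC1 to cross-present cell-associated antigen. In the cDC1 libraries Wdfy4 stood at 3782, 1259 and 983 CPM in WT and 2262, 1862 and 1978 CPM in KO. The cDC2 libraries held 533, 829 and 893 CPM in WT and 1185, 827 and 838 CPM in KO. Its call in WT, 1.42 (SE 0.43, adjusted p = 0.0344), ended without cDC1 WT replicate 1 (adjusted p = 0.14). It also ended without any 1 cDC2 WT library (0.1, 0.0732 and 0.0606), when replicate 2 or 3 of cDC1 KO was left out (0.0506 and 0.0515), and when mouse pools formed a block (0.174). Rab43 encodes a small GTPase of vesicle traffic linked to cross-presentation by cDC1. Rab43 had 1671, 856 and 723 CPM in WT cDC1, against 371, 338 and 331 CPM in WT cDC2. KO mice gave 1110, 856 and 852 CPM in cDC1 and 606, 289 and 277 CPM in cDC2. Here too replicate 1 of cDC1 WT was the highest library, but all 3 were above every cDC2 library, and the difference was 1.64 (SE 0.37, adjusted p = 0.00619) in WT and 1.27 (SE 0.36, adjusted p = 0.0312) in KO.

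Sec61a1 encodes the channel of the ER translocon. Sec61a1 was at 336, 330 and 303 CPM in cDC1 WT and at 185, 129 and 118 CPM in cDC2 WT. In KO it was at 322, 283 and 283 CPM in cDC1 and at 197, 121 and 131 CPM in cDC2. The subsets were apart in both genotypes, by 1.17 (SE 0.24, adjusted p = 0.00364) in WT and 0.98 (SE 0.24, adjusted p = 0.0136) in KO. Rab11a encodes a GTPase of the recycling endosome, a store of class I molecules. In the cDC1 libraries Rab11a stood at 214, 288 and 341 CPM in WT and 171, 139 and 140 CPM in KO. The cDC2 libraries held 131, 110 and 106 CPM in WT and 111, 107 and 111 CPM in KO. Rab11a was higher in WT cDC1 by 1.28 (SE 0.21, adjusted p = 0.000708), while in KO the difference was 0.45 (SE 0.20, adjusted p = 0.15). Sec22b encodes a SNARE protein that brings ER components to phagosomes. Sec22b had 50.4, 90.1 and 89.8 CPM in WT cDC1, against 79.4, 80.2 and 77.8 CPM in WT cDC2. KO mice gave 52.4, 50.5 and 53.1 CPM in cDC1 and 59.2, 75.1 and 76.5 CPM in cDC2. Its WT subsets did not differ beyond the spread, at -0.04 (SE 0.23). The other cross-presentation genes did not pass either. Lnpep averaged 83.9 ± 35 CPM in cDC1 WT, 119 ± 21.4 in cDC1 KO, 127 ± 13.97 in cDC2 WT and 131 ± 37.2 in cDC2 KO. Lnpep encodes IRAP, an endosomal trimming peptidase, and had -0.60 (SE 0.29). Other edgeR fits called Lnpep lower in WT cDC1. It had -0.99 (adjusted p = 0.0117) without cDC1 WT replicate 1 and -0.80 (adjusted p = 0.00547) with an offset for gene length. Rab27a averaged 30.2 ± 2.71 CPM in cDC1 WT, 29.7 ± 1.49 in cDC1 KO, 24.6 ± 4.95 in cDC2 WT and 23.8 ± 3.13 in cDC2 KO. Rab27a, a GTPase of lysosome-related organelles, had 0.29 (SE 0.20). Stx4a averaged 58.5 ± 4.58 CPM in cDC1 WT, 62.9 ± 3.16 in cDC1 KO, 46.5 ± 4.17 in cDC2 WT and 48.6 ± 1.99 in cDC2 KO. Stx4a, a syntaxin that pairs with Sec22b, had 0.33 (SE 0.17) with no overlap between the WT subsets. Vamp8 averaged 197 ± 65.5 CPM in cDC1 WT, 139 ± 12.98 in cDC1 KO, 236 ± 7.28 in cDC2 WT and 214 ± 50.7 in cDC2 KO. Vamp8, a SNARE protein of endosomes, had -0.26 (SE 0.26).

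Between the KO subsets 11 members were higher in cDC1 and none was lower, against 8.45% and 8.43% of all genes. Of these, 9 were among the 15 called in WT, which is 81.8% of the KO calls and 60% of the WT calls. The 9 were Tap1, Tap2, Tapbp, Tapbpl, Calr, Canx, Pdia3, Sec61a1 and Rab43. H2-Q6 and Nlrc5 passed in KO but not in WT, and Psmb7, Psmb8, Psmb9, Psme1, Wdfy4 and Rab11a in WT but not in KO. With an offset for gene length, Psmb7 (1.04), Psmb8 (0.81), Psmb9 (0.97), Psme1 (1.01) and Wdfy4 (0.80) passed in KO too. There 1291 of 13415 genes were higher, and Rab11a (0.39) did not pass. Within replicates 2 and 3, all of these genes, Rab11a included, were higher in KO cDC1, against 25% of all genes. With all libraries, in no member did the difference between the genotypes' subset differences pass, as given below. Without cDC2 KO replicate 1, H2-K1 (1.06), H2-D1 (0.72) and H2-Q4 (1.04) were higher in KO cDC1 beside H2-Q6 (1.26), where 10.3% of all genes were. In replicates 2 and 3 alone, 8 of the 9 heavy chains were higher in KO cDC1 and H2-M3 was lower, against 25% and 24.2% of all genes. Leaving out cDC2 KO replicate 2 or 3 ended the call of all but Tap1, Tapbpl and Pdia3 (adjusted p up to 0.198), and leaving out cDC1 KO replicate 1 did the same (up to 0.156). Without cDC1 KO replicate 2, Calr, Canx, H2-Q6, Nlrc5, Rab43 and Tapbp were lost (0.0561 to 0.133), and without replicate 3 Calr, H2-Q6, Nlrc5, Rab43, Tap2 and Tapbp (0.0505 to 0.132). WT libraries enter through the shared spread: Calr and Tapbp were lost without cDC1 WT replicate 2 or 3 (0.0505 to 0.0719), H2-Q6 without cDC1 WT replicate 2 (0.0592), and Calr, Tapbp and H2-Q6 without cDC2 WT replicate 2 (0.0556 to 0.0755).

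The mouse pools join the subsets, and with the pool as a block 11 members were higher in WT cDC1, all among the 15 (7.83% of all genes), and 8 in KO cDC1 (5.97% of all genes). Calr, H2-Q6 and Nlrc5 lost their KO call there. With an offset for gene length, 16 members were higher and 2 lower in WT cDC1, against 12.8% and 14.5% of all genes. All 15 WT calls were kept with this offset, and all 15 within replicates 2 and 3, where 23.2% of all genes were higher. In WT, Tap1, Tap2, Tapbpl, Calr, Canx, Pdia3, Sec61a1, Rab43 and Rab11a kept their call in all 22 alternatives, and in KO Tap1, Tapbpl and Pdia3 did. The cDC1 markers, summed, were at 87.3 to 306 CPM in cDC2 WT, 92.8 to 158 CPM in cDC2 KO and 5927 to 10033 CPM in the cDC1 libraries, and the part of admixed cells in these differences was not tested.

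**Figure D2:**
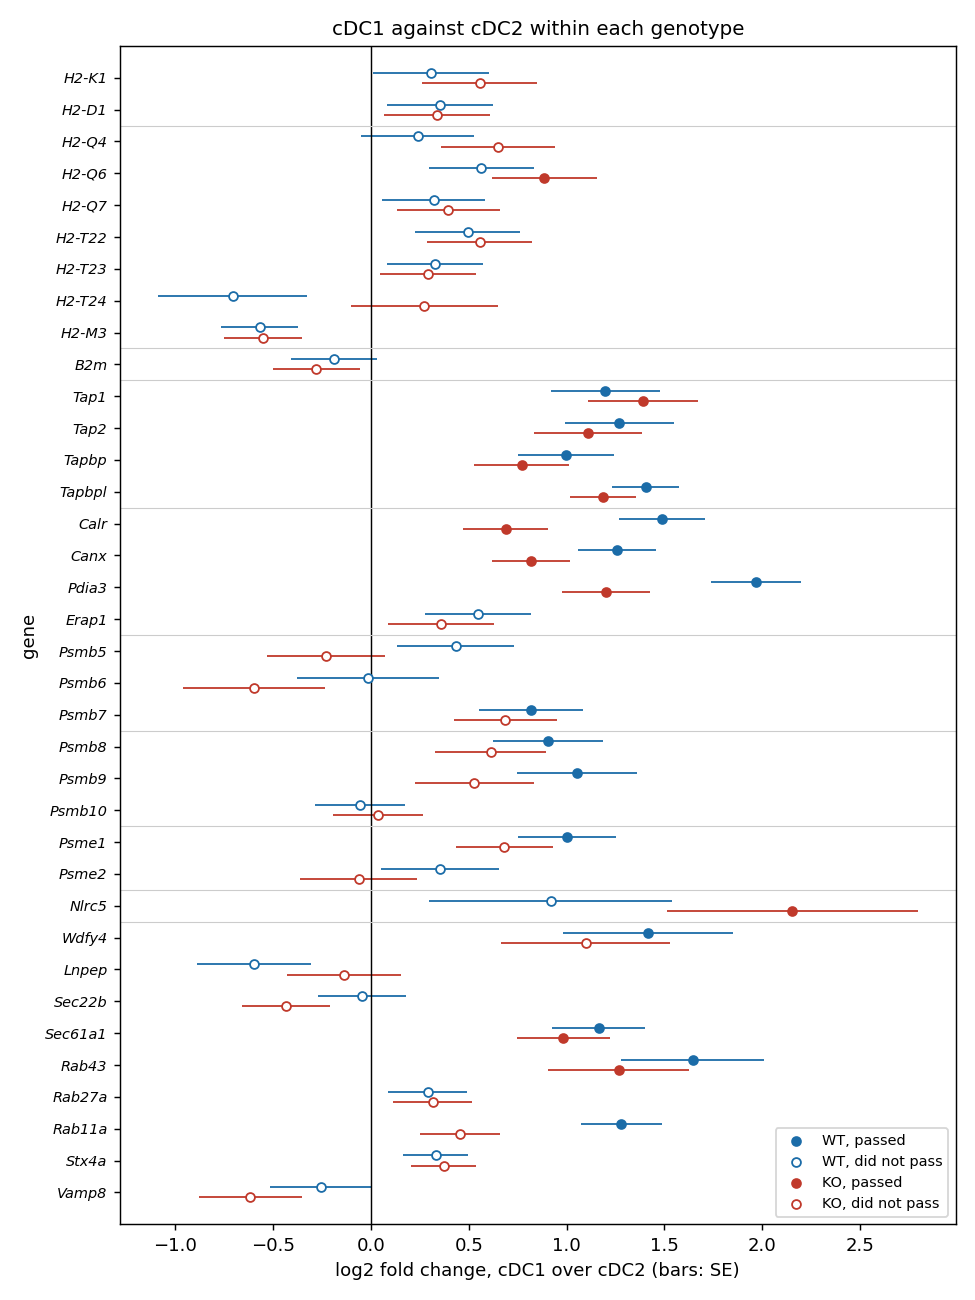
The log2 fold change of cDC1 over cDC2 is shown for each of the 36 genes in WT (blue) and KO (red), with SE bars and filled points for genes that passed. Tap1, Tap2, Tapbp, Tapbpl, Calr, Canx, Pdia3, Sec61a1 and Rab43 are filled in both genotypes, and no filled point lies below 0.

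Relative to the heavy chains, the loading genes stood higher in every cDC1 library than in any cDC2 library. The summed RPKM of Tap1, Tap2, Tapbp, Tapbpl, Calr, Canx and Pdia3 over that of the 9 heavy chains was 0.538, 0.534 and 0.569 in cDC1 WT and 0.444, 0.432 and 0.431 in cDC1 KO. For WT cDC2 it was 0.268, 0.226 and 0.211, and for KO cDC2 0.246, 0.336 and 0.355. The cDC1 WT libraries were thus highest, the cDC1 KO libraries came next without overlap, and the 2 cDC2 groups overlapped. The lower sum of the loading genes in cDC1 KO lay mostly in Pdia3 and Calr. From cDC1 WT to cDC1 KO, mean RPKM went from 857.63 to 510.07 for Pdia3 and from 714.88 to 428.25 for Calr. Tap1 went from 227.4 to 218.44, and Canx, Tap2 and Tapbpl also fell by little. Tapbp rose from 172.46 to 191.83. The ratios of loading genes to heavy chains were formed with the results in view, so they are given with no test.

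The exchange of standard for immunoproteasome subunits can be read within each library, and it differed by pair. Psmb9 over Psmb6 (RPKM) was 5.68 ± 0.24 in cDC1 WT, 4.78 ± 0.19 in cDC1 KO, 2.69 ± 0.17 in cDC2 WT and 2.40 ± 0.79 in cDC2 KO. Psmb8 over Psmb5 was 8.18 ± 0.43, 8.68 ± 0.35, 6.20 ± 1.30 and 5.04 ± 1.54 in the same order. Psmb10 over Psmb7 was 0.435 ± 0.028, 0.475 ± 0.025, 0.803 ± 0.160 and 0.767 ± 0.218. Psmb9 and Psmb8 were thus more in excess over their counterparts in cDC1, and Psmb10 was nearer to Psmb7 in cDC2. In cDC1 WT these ratios varied little between replicate 1 and the others, although the genes themselves varied more.

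**Figure D3:**
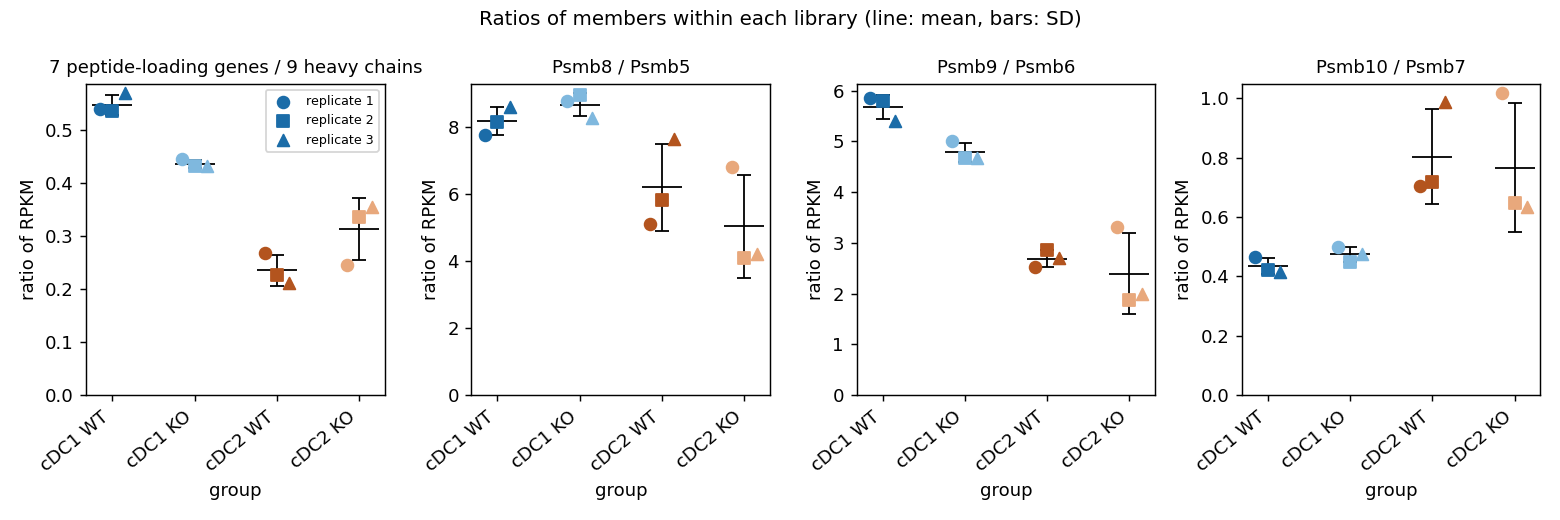
Each point is 1 library, with marker shape for the replicate number, a line for the group mean and bars for the SD. The first panel shows 7 loading genes over 9 heavy chains, where cDC1 WT (0.534 to 0.569) lies above cDC1 KO (0.431 to 0.444), and the other panels show the 3 pairs of immunoproteasome and standard subunits.

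The second comparison asked what changes in KO cDC1. It shares its cDC1 libraries with the subset comparisons, so the values are set side by side and not read as separate evidence. With all libraries, Rab11a was the only member called: it was 1.87-fold lower in KO, -0.90 (SE 0.21, adjusted p = 0.0229), with no overlap between the genotypes. None of the 36 was higher, against 3.6% of all genes higher and 1.72% lower. The members' median was -0.22, and 29 of them had a value below 0. Libraries did not overlap for 4 members that lay lower in KO, Tapbpl, Calr, Pdia3 and Rab11a (11.4% of all genes), and for none that was higher (15.5% of all genes). The 4 of 36 lower are near the share of all genes, so lack of overlap alone does not set these members apart. At an unadjusted p under 0.05 there were 9 members, all lower in KO, and DESeq2 called 4, Rab11a, Calr, Pdia3 and Psmb9. The share of all genes at that cut or by DESeq2 is not given here, so neither count is read against it. The call of Rab11a ended when cDC1 WT replicate 2 or 3 was left out (adjusted p = 0.0994 and 0.113), when any 1 of the cDC1 KO libraries was (0.0532, 0.13 and 0.126, in the order of their numbers), and with only the cDC1 libraries in the fit (0.0558).

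Across the members, gene length and this change had a Spearman correlation of 0.53 with all libraries. With a length offset 4 members were lower, Rab11a, Pdia3, Calr and Psmb9, and none higher, against 2.8% of all genes lower.

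Calr and Pdia3, chaperones of the loading complex, came next. Calr had -0.74 (SE 0.22, adjusted p = 0.0723) and Pdia3 -0.75 (SE 0.22, adjusted p = 0.0774), and every KO library was below every WT library for both. Psmb9 had -1.004 (SE 0.31, adjusted p = 0.0855). The proteasome members had a median of -0.68, and all 8 were below 0 (6 of them, with a median of -0.34, when a gene length offset was used), but for each of them replicate 1 of cDC1 WT lay below the highest KO library. H2-K1 had -0.002 (SE 0.29), H2-D1 -0.24 (SE 0.27), B2m -0.14 (SE 0.22) and Tap1 -0.06 (SE 0.28), all of them within 1 SE of 0. Nlrc5 had 0.63 (SE 0.62) with a WT spread of 20 to 104 CPM.

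Without cDC1 WT replicate 1, 12 members were lower and 3 higher in KO cDC1, where 10.5% of all genes were lower and 11.8% higher. The lower ones were led by Psmb9, -1.32 (SE 0.19, adjusted p = 0.000993), Psmb6, -1.10 (SE 0.28), and Rab11a, -1.06 (SE 0.17). Nlrc5 1.72 (SE 0.55, adjusted p = 0.0436), Lnpep 0.91 (SE 0.24) and Wdfy4 0.86 (SE 0.27) were higher. With a length offset within replicates 2 and 3, Wdfy4 was at -0.23 (SE 0.09, adjusted p = 0.0633) and Lnpep at 0.26 (SE 0.11, adjusted p = 0.0928), so neither was called and Wdfy4 changed sign. In these fits the transactivator was higher in the same KO libraries in which proteasome genes were lower. The left-out cDC1 WT replicate 1 had this pattern too. Nlrc5 was at 104 CPM there, against 65.8 to 86.3 CPM in cDC1 KO, and all 8 proteasome members lay below the highest KO library. Its levels went with gene length as in the KO libraries (Spearman correlations of 0.45 and of 0.30 to 0.41).

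Within replicates 2 and 3 of all groups, 19 members were lower and 4 higher, against 22.9% and 24.9% of all genes. All 8 proteasome members were among the lower, with a median of -1.05. Gene length moved with these values: across the 36 members, Spearman's correlation of length with the log2 fold change was 0.62 there, and 0.45 over all genes. With a length offset in the same libraries, 15 members were lower and 6 higher, against 18.5% and 19.5% of all genes. The 6 were B2m, H2-Q4, H2-Q6, H2-T24, Nlrc5 and Stx4a. Of the proteasome genes, Psmb6, Psmb8, Psmb9, Psme1 and Psme2 remained lower and Psmb5, Psmb7 and Psmb10 did not pass, with a median of -0.44. Psmb9, at -1.38 without the offset, had -0.72 (SE 0.08, adjusted p = 6.5e-05).

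The members called lower in all 3 of these fits were 10: Calr, H2-T22, Pdia3, Psmb6, Psmb8, Psmb9, Psme1, Psme2, Rab11a and Sec22b. Nlrc5 was the 1 member called higher in all 3. The share of all genes called in all 3 fits is not given here, so these counts have no background. In the single fits, in the order above, 10.5%, 22.9% and 18.5% of all genes were lower. The shares higher were 11.8%, 24.9% and 19.5%. Pdia3 had -0.95 (SE 0.09), Rab11a -1.13 (SE 0.10) and Sec22b -0.57 (SE 0.09) with the offset, and Nlrc5 1.08 (SE 0.18). These 3 fits share the libraries of replicates 2 and 3, so they are not separate evidence. Whether replicate 1 or the other WT libraries reflect cDC1 at large was not tested.

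**Figure D4:**
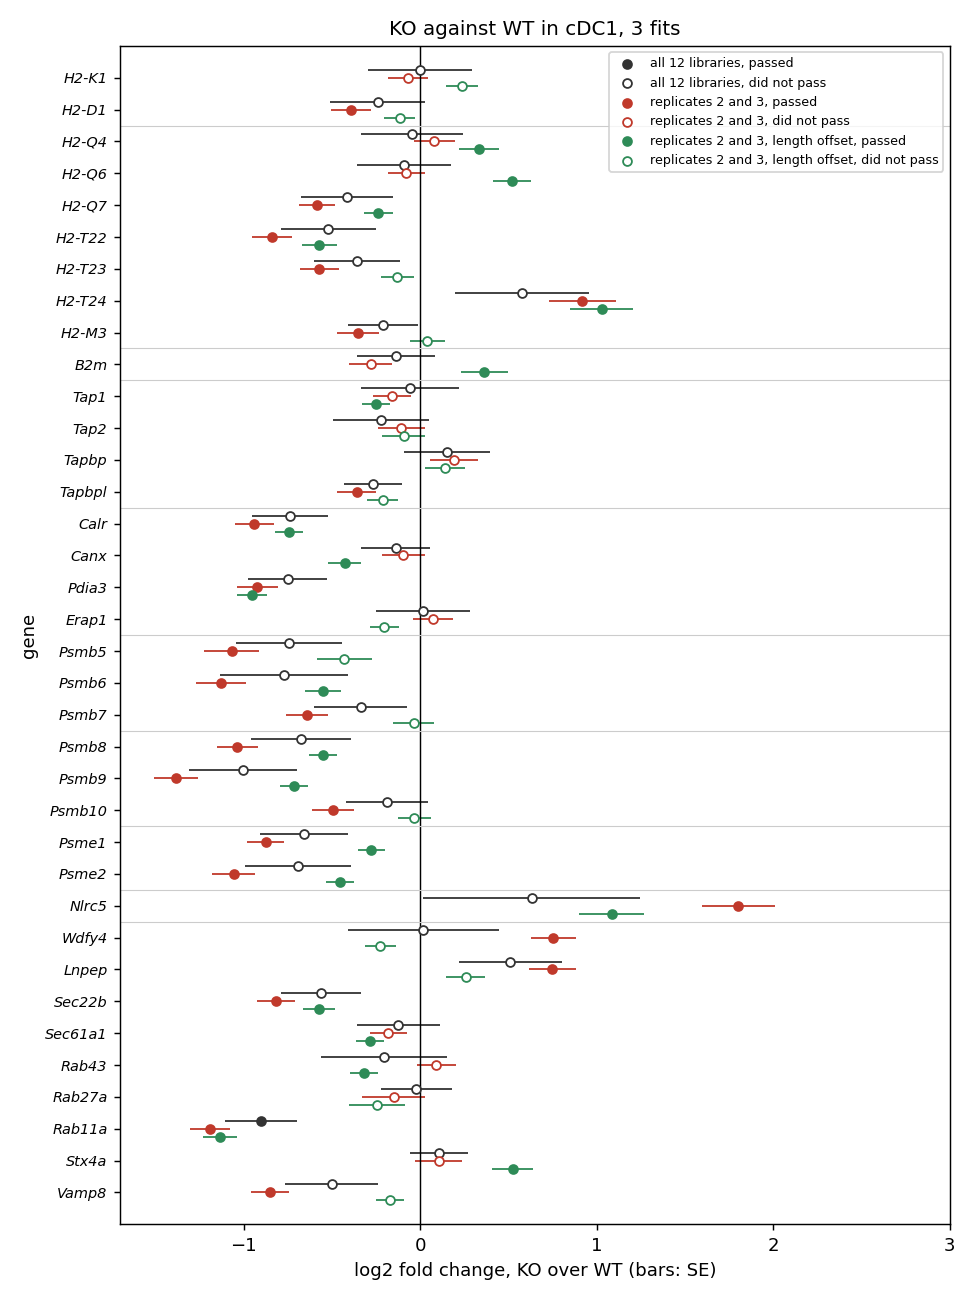
The log2 fold change of KO over WT in cDC1 is shown for each gene with all 12 libraries (black), within replicates 2 and 3 (red) and within these with a gene length offset (green), with SE bars and filled points for genes that passed. Rab11a alone is filled in black, all 8 proteasome genes are filled in red, and 5 of them are filled in green.

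Of 26 interferon-stimulated genes 10 were higher in KO cDC1 and none lower, with a median of 1.28, and those with the smallest p were Gbp2 (2.27, SE 0.20), Oas3 (5.94, SE 0.58) and Oasl2 (4.49, SE 0.49), a guanylate-binding protein and enzymes of the antiviral oligoadenylate synthetase family. Class I heavy chains, B2m, Tap1 and Psmb8 are known interferon targets too. Of 14 regulators of class I genes Irf1 (0.89, SE 0.22) and Nfkb1 (1.02, SE 0.26) were higher and Rfxap (-0.87, SE 0.22), a part of the RFX complex at X boxes, was lower. Of 12 class I related genes tested, H2-M2 was higher (2.90, SE 0.32) and Hfe, which controls iron uptake, was lower (-1.63, SE 0.37). Among 9 ER folding genes Pdia4 was lower (-0.94, SE 0.22), and none of 11 other core subunits, 20 regulatory subunits of the proteasome, 5 cytosolic peptidases or 18 other genes of phagosome traffic passed. The other core subunits had a median of -0.62, near that of the proteasome members. Summed cDC2 markers were at 59.8 to 77.4 CPM in cDC1 WT, 486 to 498 CPM in cDC1 KO and 1955 to 2402 CPM in cDC2, and 7 of the 8 were higher in KO cDC1, with a median of 3.21. Summed cDC1 markers were at 6986 to 10033 CPM in cDC1 WT and at 5927 to 6344 CPM in cDC1 KO. Of these 8 markers 1 was called lower in KO cDC1 and 7 were below 0, with a median of -0.62. Summed monocyte markers were at 91.2 to 152 CPM in cDC1 WT and 574 to 717 CPM in cDC1 KO, and Ccr2 (2.92, SE 0.63) and Ms4a4c (2.23, SE 0.21) were the 2 of 6 that were higher. The part of any of these marker lists in these results was not tested. Summed erythroid and platelet markers were at 13.3, 124 and 132 CPM in cDC1 WT and at 11.4, 46.5 and 51.8 CPM in cDC1 KO, and so moved with the replicate number.

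Between the WT subsets 8 of the 9 ER folding genes were higher in cDC1 (list median 1.15), with Pdia4 (2.12, SE 0.23), Pdia6 (1.65, SE 0.23) and Erp44 (1.39, SE 0.19), all of them thiol oxidoreductases, in front. Of 26 interferon-stimulated genes 15 were lower in cDC1 and 1 was higher (list median -1.29), with Rtp4 at -5.12 (SE 0.48), the RNA sensor gene Ddx58 at -4.44 (SE 0.42) and Oas1a at -3.67 (SE 0.36). Of 18 genes of phagosome traffic 6 were higher, with Mpeg1, which encodes the pore-forming perforin-2 (4.42, SE 0.48), Rab32 (2.40, SE 0.29) and Clec9a, a receptor for dead cells (5.58, SE 0.87). Of 20 regulatory subunits 4 were higher, led by Psmd11 (1.03, SE 0.22), Psmd1 (0.85, SE 0.19) and Psmd12 (0.69, SE 0.20), and none of the 11 other core subunits was. Of 12 class I related genes 3 were higher, the neonatal Fc receptor gene Fcgrt (1.33, SE 0.25) among them with Cd1d2 (2.28, SE 0.61), and 2 lower, H2-M2 (-2.66, SE 0.31) first. Of 14 regulators Irf8 (5.53, SE 0.54) and Rfxap (0.85, SE 0.22) were higher, and Nfkb1 (-1.55, SE 0.26) was the first of 2 that were lower. Of 5 cytosolic peptidases the aminopeptidase gene Lap3 was higher (1.18, SE 0.24).

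Between the KO subsets 4 of the ER folding genes were higher in cDC1, led by Hspa5, which encodes the chaperone BiP (0.98, SE 0.23), and none of the 20 regulatory or 11 other core subunits of the proteasome passed. Regulators higher in KO cDC1 included Irf8 (5.14, SE 0.53) and Irf1 (1.72, SE 0.22). Fcgrt was higher (1.40, SE 0.25) and Mr1, which presents vitamin metabolites, was lower (-1.50, SE 0.34). Of the interferon-stimulated genes 7 were higher and 2 lower in KO cDC1, with Gbp2 (1.84, SE 0.19), Ifi44 (3.78, SE 0.54) and Irf7 (1.68, SE 0.30) first. Of the phagosome genes 5 were higher and 1 lower, again with Mpeg1 (3.73, SE 0.46), Rab32 (2.27, SE 0.29) and Clec9a (5.63, SE 0.87). Irf8 and Clec9a are also among the cDC1 markers.

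The third comparison asked what changes in cDC2. No member passed, and no gene did (0% of all genes), by edgeR. At an unadjusted p under 0.05 there was 1 member, H2-T22, and 271 of all genes (2.02%), and DESeq2 called no member. The 10 heavy and light chains were all below 0, with a median of -0.36 (9 of them with a gene length offset, where B2m was at 0.13), but the libraries labelled KO were wide apart. H2-K1 was at 2336 CPM in replicate 1 of cDC2 KO and at 1034 and 1060 CPM in replicates 2 and 3, while cDC2 WT was at 1636 to 1909 CPM. The change of H2-K1 was -0.25 (SE 0.29, adjusted p = 1). Libraries did not overlap for 4 members lower in KO (2.55% of all genes), H2-T22, Psmb8, Psmb9 and Sec22b, and for none higher (3.33% of all genes).

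Within replicates 2 and 3, 12 members were lower and none higher in cDC2 KO, against 4.37% of all genes lower and 3.35% higher. The 12 were mostly presenting molecules: 8 of the 10 heavy and light chains, together with Tap1, Tap2, Psme1 and Nlrc5. H2-K1 had -0.80 (SE 0.11, adjusted p = 0.00132), H2-D1 -0.63 (SE 0.11), H2-Q4 -1.06 (SE 0.12), H2-Q6 -0.97 (SE 0.11), H2-T24 -1.09 (SE 0.19) and Nlrc5 -1.04 (SE 0.21, adjusted p = 0.0103). Tap1 had -0.43 (SE 0.11) and Tap2 -0.54 (SE 0.14). The chaperones were level, with Calr at -0.01 (SE 0.11) and Pdia3 at 0.01 (SE 0.11), as was B2m at -0.11 (SE 0.12). Each group has only 2 libraries in this fit. It leaves out cDC2 KO replicate 1, where H2-K1 was at 2336 CPM, above every cDC2 WT library. Its SE and adjusted p therefore do not cover the spread between all pools, and with all libraries no member passed. All 12 also passed with a length offset in these libraries, where 4.62% of all genes were lower. H2-D1 and H2-Q6, whose sequences are printed above, were among the 12.

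Interferon-stimulated genes moved with these chains in cDC2. Within replicates 2 and 3, 21 of 26 were lower in KO and 1 higher, with a median of -0.96. Their summed level was 992, 1604 and 1522 CPM in cDC2 WT and 1342, 944 and 961 CPM in cDC2 KO, so replicate 1 went the other way in them as in H2-K1. Replicate 1 of both genotypes also had the lowest neutrophil markers in cDC2, at 5.9 CPM against 80.1 and 79.8 in WT and at 1.2 against 69.8 and 60.4 in KO. Summed macrophage markers were at 265, 527 and 463 CPM in cDC2 WT and at 513, 310 and 295 CPM in cDC2 KO, and so had replicate 1 going the other way too, with 1 of 8 lower in KO within replicates 2 and 3. Summed monocyte markers were at 546, 578 and 569 CPM in cDC2 WT and at 636, 403 and 404 CPM in cDC2 KO, with 2 of 6 lower there. The part of these lists in the member values was not tested.

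**Figure D5:**
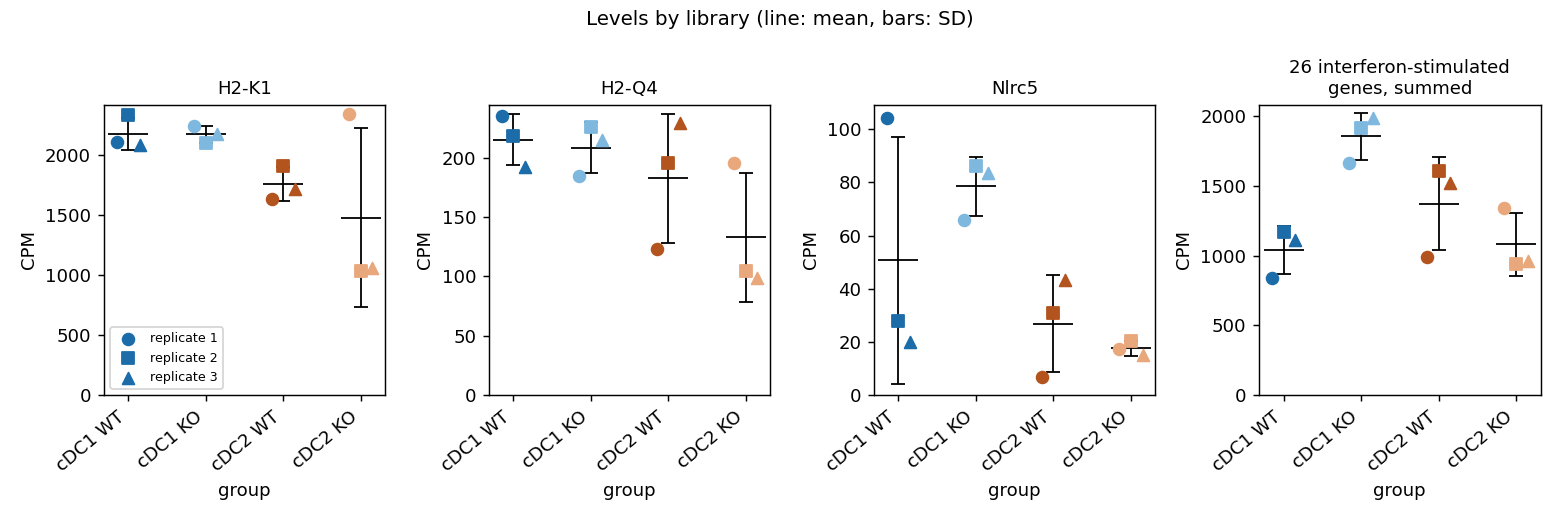
Each point is 1 library, with marker shape for the replicate number, a line for the group mean and bars for the SD. Panels show the CPM of H2-K1, H2-Q4 (picked after its values were seen) and Nlrc5, and the summed CPM of 26 interferon-stimulated genes. In cDC2 KO, H2-K1 is at 2336 CPM in replicate 1 and at 1034 and 1060 CPM in the others, and in cDC1 KO the summed interferon-stimulated genes lie above all other groups.

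The last comparison asked whether the KO effect differs between the subsets. With all libraries no member passed, against 1.42% of all genes. At an unadjusted p under 0.05, for which the share of all genes is not given here, there were 3 members. They were Rab11a (-0.83), Calr (-0.80) and Pdia3 (-0.77), each with a negative KO value in cDC1 and a value near 0 in cDC2. Rab11a had an adjusted p of 0.28. Without cDC1 WT replicate 1, Rab11a (-0.99, adjusted p = 0.0403) and Pdia3 (-0.96, adjusted p = 0.0469) passed, against 0.941% of all genes lower. Within replicates 2 and 3, 7 members were higher and 12 lower in this difference, against 20.3% and 18.1% of all genes. Rab11a (-1.20, adjusted p = 0.000209), Calr (-0.93) and Pdia3 (-0.93) were among the lower, and with a length offset they were at -1.12, -0.69 and -0.94 and passed as well, where 13.1% of all genes were lower. Of the interferon-stimulated genes 7 passed with all libraries, all with the more positive KO effect in cDC1, with Gbp2 (2.46, SE 0.27), Oasl2 (4.91, SE 0.63) and Oas3 (5.30, SE 0.70) first, as did Irf1 (1.48, SE 0.31) and H2-M2 (2.92, SE 0.43).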

How the data were processed

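RNA was measured in 12 libraries of sorted splenic dendritic cells, 3 per group. Per the labels, polyA RNA was extracted with RNeasy Plus Mini and libraries were made with TruSeq. The deposited values are raw counts per gene, in a table that also gives gene lengths. Per the submitters' processing notes, featureCounts was used with GRCm38 or mm10. The aligner, the strand setting and the treatment of reads with several matches are not given in the sources used here. Counts in the 12 single-library files were the same as in the table. Genes with no symbol numbered 1904, held 2.23% of the counts and stayed in all fits.

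From these counts, edgeR 4.0.16 (R 4.3.3) was used with TMM scaling and filterByExpr, which kept 13415 genes. Its quasi-likelihood test was fitted to all 12 libraries with 4 group means and 8 residual degrees of freedom, with Benjamini-Hochberg adjustment over all genes tested and a threshold of 0.05. An SE is the size of the log2 fold change divided by sqrt(F). CPM use TMM-scaled totals, and RPKM divides CPM by the deposited gene length. The test was checked on simulated data. Depth differed 3.24-fold between libraries, so low genes are least precise in the smallest, and intervals from counting would not cover the spread between pools.

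The members and lists were chosen with earlier results of these data known. Every member is named. Values per library are given for up to 8 called members per comparison, by smallest p, and for H2-K1, H2-D1, B2m, Tap1, Nlrc5, Psmb8, Psmb5, Wdfy4, Sec22b and Rab43. Of the other lists, up to 3 called genes per comparison are named, by smallest p. The ratios of loading genes to heavy chains and the plot of H2-Q4 were added after values were seen.

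Each mouse pool gave both subsets, so pools pair the subsets by source. The residuals of same-pool libraries correlated at -0.21, -0.11 and -0.07 in WT and at 0.26, 0.14 and 0.14 in KO. Alternatives were RLE scaling, 2 other filters on low counts, DESeq2 1.42.0, each library left out in turn, replicates 2 and 3 alone, an offset for gene length (lowess with a span of 0.3 per library), fits to only the groups compared, and blocks for the title number or mouse pool. Promoter windows came from RefSeq (GRCm38.p6), and genes were matched by symbol.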

Additional observations from a re-analysis of the deposited data

How the results depend on the processing

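Of the 36 members, the number called between the WT subsets was 15, and it was 28 within replicates 2 and 3, 24 there with a gene length offset, and 9 in a fit to the WT libraries alone. Leaving out 1 library gave 11 to 17. Between the KO subsets it was 11, with 3 to 20 when 1 library was left out. It was 32 within replicates 2 and 3 and also 32 there with the offset, 17 with the offset alone and 19 with only the KO libraries. For KO against WT in cDC1 it was 1, with 0 to 15 when 1 library was left out: 15 without cDC1 WT replicate 1, 2 without cDC2 KO replicate 1, and 0 without any 1 of the other cDC1 libraries. It was 4 with DESeq2, 23 within replicates 2 and 3, 21 there with the offset, 4 with the offset alone and 0 with only the cDC1 libraries. In cDC2 it was 0, and 12 within replicates 2 and 3 or 15 there with the offset. For the difference of the KO effect it was 0, with 0 to 2 when 1 library was left out (2 without cDC1 WT replicate 1), 19 within replicates 2 and 3 and 16 there with the offset. Counts over all genes rose within replicates 2 and 3 too. There 23.2% of all genes were higher and 24.3% lower between the WT subsets. Between the KO subsets 25% and 24.2% were. For KO against WT it was 24.9% and 22.9% in cDC1 and 3.35% and 4.37% in cDC2. In the difference of the KO effect it was 20.3% and 18.1%. With the offset alone, 1291 of 13415 genes were higher and 1400 lower between the KO subsets, and 620 were higher and 376 lower in KO cDC1. With the offset within replicates 2 and 3, 19.5% were higher and 18.5% lower in KO cDC1. Without cDC1 WT replicate 1 these shares were 11.8% and 10.5%. Without cDC2 KO replicate 1, 10.3% were higher between the KO subsets. Counts of the remaining fits stand here without that share, so they are not read as a result about the members. The cause of these changes was not tested.

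With replicates 2 and 3 and the offset, 3 members turned from below to above 0 in KO cDC1 and passed there: H2-Q4 (0.33), H2-Q6 (0.52) and B2m (0.36). So did H2-D1 (0.56), H2-T23 (0.48) and B2m (0.56) in the difference of the KO effect, and B2m (0.45) between the KO subsets. Changes of sign that did not pass, such as H2-K1 (0.24) and H2-M3 (0.04) in KO cDC1, are not listed. Within replicates 2 and 3, Wdfy4 turned to 0.80 in the difference of the KO effect (with the offset there it was lower, -0.42, adjusted p = 0.0279) and Nlrc5 to -0.61 between the WT subsets. The direction of the light chain in KO cDC1 therefore depends on the length offset.

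KO and WT libraries of the same title number had residual correlations over all genes of 0.02, -0.07 and 0.11 in cDC1 and -0.05, -0.05 and -0.06 in cDC2. As a replicate block the title number left 1 member called in cDC1 and 0 in cDC2. Some genes did move with the number. Summed erythroid and platelet markers were at 7.8 to 13.3 CPM in replicate 1 of every group, against 46.5 to 132 CPM in replicates 2 and 3. The correlations over all genes therefore do not show that the number is without meaning. With the mouse pool as the replicate block, 11 members were called between the WT subsets, 8 between the KO subsets and 0 in the difference of the KO effect. With the pool block and the length offset these numbers were 17, 16 and 0, and the share of all genes for that fit is not given here. No scaling or other alternative moved the median of all genes by more than 0.0673 on the log2 scale. With 3 pools per group and a median SE of 0.33 on the log2 scale over the genes tested in cDC1, changes smaller than the spread between pools were not detectable.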
